A study of Rattus norvegicus with 6 samples.

Results

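Natural killer (NK) cells that hold transcripts of the lectin-like receptor genes Klrh1 or Klri2 were studied in the pancreas of rats. A cell counted as an NK cell if at least 3 of the 6 genes Ncr1, Klrd1, Nkg7, Prf1, Gzma and Klrb1a were detected, if no UMI (unique molecular identifier, 1 captured transcript) of Cd3e, Cd3d or Cd3g was present, and if C1qa, C1qb and C1qc together had at most 1 UMI. Members were the NK cells with 2 or more UMIs of Klrh1 and Klri2 together. Of 12245 NK cells among 75981 kept cells, 3535 (28.9%) were members, 8244 had neither transcript and are called zero cells, and 466 had 1 UMI and were set aside. Without HFHF-old replicate 2, the library with most of these cells, 650 of 4192 NK cells (15.5%) were members. Members were thus chosen by the measured UMIs of Klrh1 and Klri2, and NK cells by the genes of the rule. The levels of those genes in members and zero cells are therefore given as a description and were not tested.

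NK cells kill target cells with perforin and granzymes, and a changing repertoire of inhibitory and activating receptors decides which targets they attack. In rodents many of these receptors are C-type lectin-like proteins encoded side by side in the natural killer gene complex, among them the Ly49 family, which reads MHC class I, and CD94 with its NKG2 partners. KLRI1 and KLRI2 each pair with KLRE1, the first giving an inhibitory and the second an activating receptor, and KLRH1 is a further lectin-like receptor described on subsets of NK cells. A given receptor of this complex is typically made by some NK cells of an animal and not by others.

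The 6 libraries, 1 per male Wistar rat, formed 3 groups of 2 rats, with no genetic change in any of them. Young rats were 2 months old and ate a normal diet, old rats were 20 months old and had eaten the normal diet throughout, and HFHF-old rats were 20 months old and had eaten a high-fat, high-fructose diet for 18 months. The tissue was dissociated with collagenase P and enriched for islets on a density gradient. Libraries of the 10x Genomics 3' type held between 77387928 and 166875258 UMIs in 7617 to 17724 barcodes. Values per rat below always follow the order young replicate 1, young replicate 2, old replicate 1, old replicate 2, HFHF-old replicate 1 and HFHF-old replicate 2.

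HFHF-old replicate 2 stood apart from the other 5 libraries, with 4 beta cells and 38 macrophages among its cells and no sort given in the labels. NK cells were 68.6% of its kept cells, against 2.53% to 8.68% elsewhere, and it supplied 2885 members, 81.6% of all. The other rats had 17, 104, 215, 245 and 69 members in the order above. Counts were therefore summed per rat and cell group before testing, so that each rat had 1 value, and the pooled cell numbers and the counts of genes are also given without this library. Among the barcode sequences, 636 occurred in more than 1 library, and they touched 197 NK cells and 56 members.

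Klri2 and Klrh1 lie next to each other in the RefSeq gene order of chromosome 4, after Klre1 and Klri1. Their promoters are shown because these are the genes that divide NK cells of 1 rat into holders and non-holders. RefSeq's GRCr8 assembly places the window from 250 bases before to 50 bases after the start of Klri2 at chr4:164947455-164947754 and that of Klrh1 at chr4:164987938-164988237, both on the minus strand. Capitals mark matches, on either strand, to letters bound by Runx factors (TGTGGT), T-box factors (TCACAC), ETS factors (GAGGAA) or STAT factors (TTCNNNGAA). 
Klri2: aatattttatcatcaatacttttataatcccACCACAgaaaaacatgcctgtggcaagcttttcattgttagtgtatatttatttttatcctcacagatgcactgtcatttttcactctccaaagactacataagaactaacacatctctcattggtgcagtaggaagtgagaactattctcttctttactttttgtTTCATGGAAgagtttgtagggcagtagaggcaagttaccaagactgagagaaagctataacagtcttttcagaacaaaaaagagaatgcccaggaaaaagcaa
Klrh1: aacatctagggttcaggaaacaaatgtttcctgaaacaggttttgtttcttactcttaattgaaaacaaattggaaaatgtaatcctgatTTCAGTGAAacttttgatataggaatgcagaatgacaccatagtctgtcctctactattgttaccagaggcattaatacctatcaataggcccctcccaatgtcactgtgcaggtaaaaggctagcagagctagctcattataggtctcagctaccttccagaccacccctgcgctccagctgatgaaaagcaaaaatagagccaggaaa
The Klri2 window held 1 Runx match at -219 and 1 STAT match at -53, counted from the start site, and the Klrh1 window held 1 STAT match at -160 and none of the other 3. Over all 33469 promoters of this length, 17.3% held the Runx letters, 13.7% the T-box letters, 27.6% the ETS letters and 8.87% the STAT letters. A match of letters is a description and not a bound site. The deposited counts were made on another assembly, so no position of the counted features is given.

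Most NK cells had neither transcript, and the holders ranged from single UMIs to many. Over all rats 8244 NK cells had a sum of 0, 466 had 1 UMI, 368 had 2, 335 had 3, and 637 had 16 or more. Without HFHF-old replicate 2 these numbers were 3384, 158, 128, 104 and 42. There was no gap at the limit of 2 UMIs, with numbers of cells just outside and just inside it of the same order. In HFHF-old replicate 2, 74.9% of the members had 5 UMIs or more, and the highest cell had 85. In young replicate 1 only 2 of 17 members had 5 or more. Among cells that should lack these receptors, 2 or more UMIs were found in 0.0232% of 17233 macrophages and in none of 443 B cells, which allows up to 0.677% by 3 counts. The shares were 0.222% of 4946 beta cells and 0.463% of 11452 fibroblasts, at median depths of 6851 and 9871 UMIs against 8028 in NK cells, and by rat the fibroblasts ran from 0.0471% to 0.835% in 5 rats and reached 2.73% of 550 in HFHF-old replicate 2. T cells reached 2.07% of 6035. In 5 of 6 rats the share in T cells, 0.638% to 5.24%, was below that in NK cells of the same rat, while in young replicate 1 it was 1.35% of 370 T cells against 1.12% of NK cells, so the share in that rat was not above the level of its T cells.

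**Figure D1:**
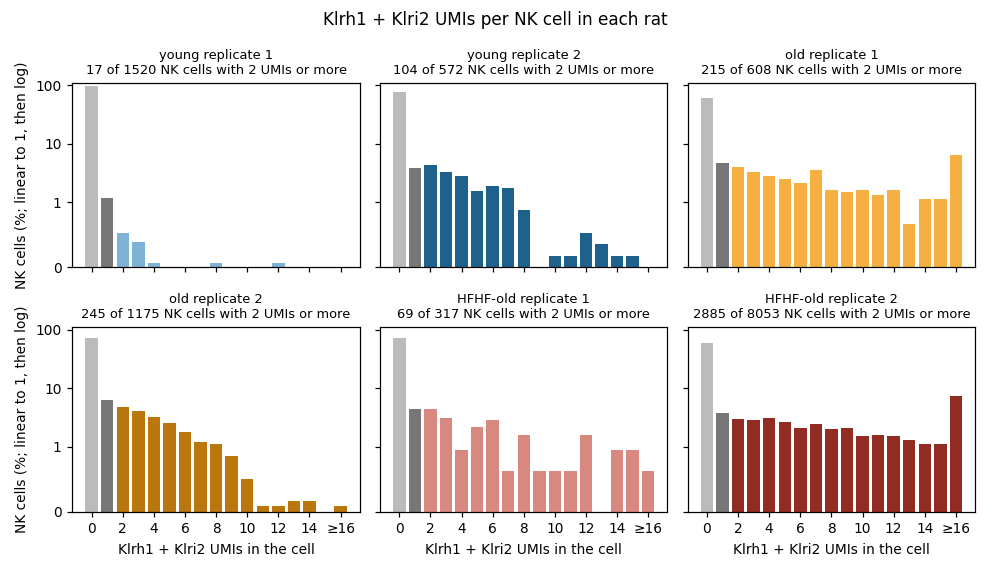
Share of NK cells (vertical axis, percent, linear to 1 and logarithmic above) by the sum of Klrh1 and Klri2 UMIs in the cell (horizontal axis, 16 and more in the last bar), 1 panel per rat. Light grey is 0 UMIs, dark grey is 1 UMI and colour marks the members, whose long tail is seen in old replicate 1 and HFHF-old replicate 2 and is almost missing in young replicate 1.

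Most members held Klri2, and Klrh1 was found both with and without it. Of the members, 2530 had 2 or more Klri2 UMIs and no Klrh1 (Klri2 members), 459 had 2 or more Klrh1 UMIs and no Klri2 (Klrh1 members), and 546 had both transcripts, so that 546 of the 1005 members with Klrh1 also held Klri2. Without HFHF-old replicate 2 the numbers were 556, 56 and 38. Among NK cells with a Klrh1 UMI, the share with a Klri2 UMI was 34.0%, 52.8%, 17.6% and 52.2% in the 4 older rats in the order above, against 35.1%, 24.9%, 22.0% and 31.3% of the NK cells without Klrh1. It was higher in old replicate 2 and HFHF-old replicate 2 and not in the others. Klri2 in the members stood at 435, 570.2, 797, 892, 696 and 661 CPM (counts per 1000000 UMIs of the summed cells) in the 6 rats. Klrh1 in the members stood at 59.8, 0, 254, 116, 182 and 348 CPM. These levels follow in part from the rule, which asks for 2 UMIs of the pair. No Klrh1 UMI was found in any of the 572 NK cells of young replicate 2, which allows a share of up to 0.524% of cells with a UMI, and 7 of 1520 NK cells (0.461%) had one in young replicate 1. In the other rats the share with a Klrh1 UMI was 7.73%, 3.06%, 5.36% and 12.1%. These intervals and limits cover counting error only.

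The label's other markers, Il12rb2 and Cpne4, were not used by the rule. Il12rb2, a chain of the interleukin-12 receptor, was at 888, 258, 532, 457, 554 and 791 CPM in members and at 450.0, 146, 301, 313, 572 and 687 CPM in zero cells. It was higher in members of 5 of 6 rats, but the difference did not pass the test (log2 0.48, SE 0.114, edgeR adjusted p = 0.0641). Cpne4, a calcium-binding copine, was at 341, 60.0, 1.47, 1.76, 47.9 and 260.3 CPM in members and at 138, 48.1, 0.575, 1.08, 72.9 and 245 CPM in zero cells, so it separated rats rather than members from zero cells (log2 0.23, SE 0.183, edgeR adjusted p = 0.882). The cells are called here by the 2 receptors of the rule alone. NK genes that the rule did not use were present in both cell groups of every rat, with Il2rb, the beta chain of the interleukin-2 and interleukin-15 receptors, at 663 to 854 CPM in members and 669 to 855 in zero cells, and the NK cell regulator gene Eomes at 17.1 to 53.7 CPM in members and 22.4 to 44.0 in zero cells.

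The share of NK cells that were members differed widely between rats. It was 1.12% (95% exact binomial interval 0.653 to 1.78), 18.2% (15.1 to 21.6), 35.4% (31.6 to 39.3), 20.9% (18.6 to 23.3), 21.8% (17.3 to 26.7) and 35.8% (34.8 to 36.9). Depth enters such a share, since deeper cells more often show 2 UMIs, and the NK cells of old replicate 2 had a median of 3608 UMIs against 5536 to 8883 in the other rats. After each cell was thinned to 2000 UMIs, the shares were 0.504%, 6.0998%, 20.4%, 13.5%, 10.5% and 19.1%. Both young rats lay below all 4 older rats with and without thinning, while old and HFHF-old rats overlapped.

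**Figure D2:**
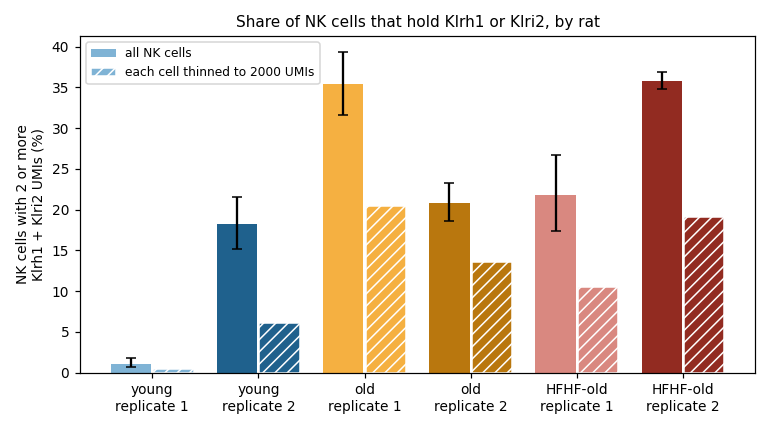
Share of NK cells that were members in each rat (percent), with solid bars for all NK cells, error bars for exact 95% binomial intervals, and hatched bars for cells thinned to 2000 UMIs. Young replicate 1 stands at 1.12% and the old and HFHF-old rats between 20.9% and 35.8% before thinning.

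Between the groups, thinned shares averaged 3.30% ± 3.96 (SD, n = 2) for young rats. The average was 17.0% ± 4.84 (SD, n = 2) for old and 14.8% ± 6.103 (SD, n = 2) for HFHF-old rats. Old exceeded young by 13.7 percentage points (two-sided exact permutation test, p = 0.333), and HFHF-old minus old was -2.18 points (exact permutation test, p = 0.667). With 2 rats per group this test cannot give a p below 0.333, so neither contrast could reach significance. The sign of the diet contrast turned with the processing, to 0.689 points without thinning, to 1.24 without old replicate 1 and to 2.13 without HFHF-old replicate 1, whereas that of the age contrast did not. In all NK cells of a rat, Klri2 was at 6.51, 123, 290.3, 209, 159.8 and 264 CPM and Klrh1 at 1.22, 0, 91.5, 26.2, 41.3 and 138 CPM, again lowest in the young rats. Klrh1 and Klri2 were not left out of the fits of all NK cells given below. Neither passed there between old and young or between HFHF-old and old rats. In sums over cells, fewer holding cells and less RNA per cell cannot be told apart in such a level.

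Members were next compared with zero cells of the same rat, over 11393 genes, with the rat as a block, so that each rat's members are set against its own zero cells. In that fit 109 genes (0.957% of those tested) passed an adjusted p of 0.05 and a fold change of 1.5, of which 49 (0.430%) were higher and 60 (0.527%) lower in members. Klrh1, Klri2 and the 12 genes of the NK cell rule were left out of these tests. The killer lectins were the list with the most calls: of 36 killer lectin genes listed, 28 were in the files and 21 could be tested, and 9 of these were higher and 2 lower in members, with a median log2 difference of 0.91 against -0.02 over all genes tested. Many Ly49 genes are near-identical copies, and reads could be divided among them in counting, so single members of the family are uncertain.

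Ly49s6, named for a stimulatory Ly49 receptor, was at 691, 62.2, 670.0, 417, 589 and 380.3 CPM in members and at 119, 13.9, 53.8, 127, 111 and 62.7 CPM in zero cells. Members were higher in every rat, although those of young replicate 2 lay within the range of the zero cells, and the difference was 2.49 on the log2 scale for Ly49s6 (SE 0.189, edgeR quasi-likelihood test, adjusted p = 0.000116). Ly49s5, of the same kind, was at 350.0, 80.3, 316, 334, 215 and 233 CPM in members and at 71.6, 11.7, 20.4, 93.8, 68.3 and 40.4 CPM in zero cells (log2 2.43, SE 0.227, adjusted p = 0.000383 with edgeR). Ly49i4, named for an inhibitory receptor, was at 350.0, 0, 387, 69.6, 113 and 63.6 CPM in members against 54.1, 0.926, 19.3, 11.9, 7.97 and 9.89 CPM in zero cells. It had no UMI in the members of young replicate 2 and was higher in the members of the other 5 rats (log2 3.08, SE 0.248, edgeR adjusted p = 0.000116).

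Ly49si1 was at 188, 55.4, 454, 462, 631 and 523 CPM in members and at 50.04, 62.6, 63.0, 174, 149 and 182 CPM in zero cells, higher in members of every rat but young replicate 2 (log2 1.62, SE 0.257, edgeR adjusted p = 0.0087). Klra1, Klra22, Ly49s4 and Ly49s7 were low genes that also passed, with log2 differences of 3.02, 2.65, 2.76 and 2.71, and all 4 were at or below 3.39 CPM in the members of young replicate 2. Members were higher in 4 rats and lower in 1 for Klra1 and for Klra22. They were higher in 5 and lower in 0 for Ly49s4, and higher in 4 and lower in 2 for Ly49s7. Klrg1, an inhibitory receptor for cadherins, was at 188, 98.4, 213, 108, 176 and 191 CPM in members and at 114, 44.7, 88.0, 62.2, 135 and 119 CPM in zero cells (log2 0.80, SE 0.108, edgeR adjusted p = 0.00345). Its 2 groups of values overlapped between rats, but in each rat the members were higher. Styk1, a kinase-like receptor gene chosen after its values were seen, was at 25.6, 0, 23.1, 55.5, 21.1 and 34.1 CPM in members and at 7.42, 0, 2.301, 11.9, 5.69 and 6.05 CPM in zero cells (log2 2.39, SE 0.216, edgeR adjusted p = 0.000383).

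A pair of lectin receptors was lower in members. Klrc1, which encodes the inhibitory NKG2A that pairs with CD94, was at 34.1, 46.4, 64.4, 62.6, 55.6 and 63.4 CPM in members and at 107, 81.2, 152, 114, 96.2 and 108 CPM in zero cells, with no overlap between the groups (log2 -0.96, SE 0.103, edgeR adjusted p = 0.000617). Klri1, the inhibitory relative of Klri2, was at 350.0, 1024, 501, 832, 675 and 655 CPM in members and at 733, 1033, 943, 1015, 1165 and 1038 CPM in zero cells (log2 -0.64, SE 0.12, edgeR adjusted p = 0.0212). Klri1 and Klri2 are related in sequence and reads could be divided between them. Their shared partner Klre1 was at 145, 371, 564, 544, 449 and 397 CPM in members and at 102, 399, 439, 507, 343 and 399 CPM in zero cells, and the difference did not pass (log2 0.12, SE 0.083, edgeR adjusted p = 0.811). Klrk1, which encodes the activating receptor NKG2D, did not pass either (log2 -0.08, SE 0.0726, edgeR adjusted p = 0.945).

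**Figure D3:**
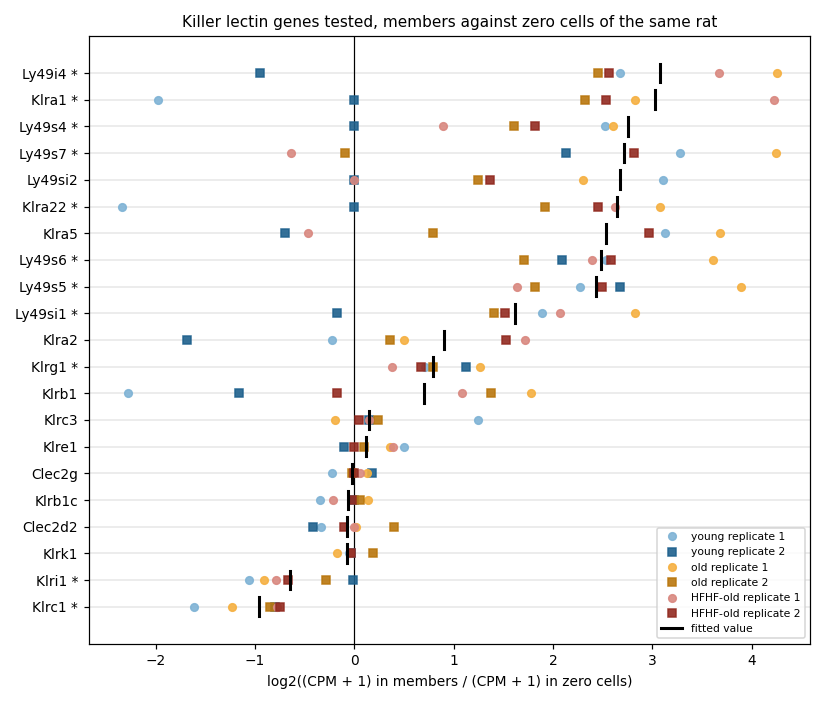
Log2 ratio of members to zero cells for the 21 killer lectin genes tested (horizontal axis, CPM + 1 in both), with 1 point per rat and a black bar for the edgeR estimate, and stars for genes that passed. Ly49s6, Ly49s5 and Klrg1 lie right of 0 and Klrc1 left of 0 in all 6 rats, while young replicate 2 lies at or left of 0 for Ly49i4, Klra1 and Ly49si1.

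Genes of the cytotoxic granule followed. Of 12 tested on a list of 20, 3 were higher in members and none lower, and the list's median was 0.03. Gzmb, which encodes granzyme B, was at 709, 355, 527, 405, 184 and 261 CPM in members and at 293, 171, 173, 272, 143 and 169 CPM in zero cells (log2 0.87, SE 0.133, edgeR adjusted p = 0.00776). Gzmk was at 2655, 940.2, 2047, 1701, 1302 and 1565 CPM in members and at 1095, 518, 942, 1105, 896 and 1157 CPM in zero cells (log2 0.75, SE 0.0957, edgeR adjusted p = 0.00222). Both granzyme genes were higher in the members of 6 of 6 rats.

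Gzmbl3, a granzyme B-like gene, was at 248, 70.1, 263, 101, 34.5 and 32.3 CPM in members and at 71.0, 22.8, 12.4, 64.6, 13.1 and 10.97 CPM in zero cells (log2 1.85, SE 0.354, edgeR adjusted p = 0.0249). Related granzyme genes could share reads in the counting. Gzma and Prf1, which encode granzyme A and perforin, are among the 6 genes of the rule and were not tested, and Gzma was at 2689, 2356, 830.2, 1139.7, 573 and 1520.2 CPM in members against 1326, 1010.3, 105, 649, 239 and 596 CPM in zero cells. Fcgr3a, which encodes the Fc receptor CD16 that lets NK cells kill antibody-coated cells, was at 85.4, 18.1, 28.5, 15.9, 21.1 and 29.8 CPM in members and at 20.4, 10.2, 2.88, 13.5, 13.7 and 9.64 CPM in zero cells (log2 1.42, SE 0.297, edgeR adjusted p = 0.0419). It was the only gene of 23 tested on a list of NK signalling adaptors to pass. Klrh1 members of the older rats did not share these higher levels of Gzmbl3, Gzma and Fcgr3a, as given below.

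Lag3, an inhibitory receptor that binds MHC class II, was at 205, 14.7, 33.4, 15.9, 32.6 and 63.0 CPM in members and at 32.5, 3.09, 8.34, 10.3, 9.11 and 16.1 CPM in zero cells (log2 1.88, SE 0.193, edgeR adjusted p = 0.000523). Levels varied between rats by more than between the cell groups, yet members were higher in all 6. Cacnb4, a subunit of voltage-gated calcium channels, was at 435, 75.8, 157, 58.2, 24.9 and 11.7 CPM in members and at 87.9, 20.7, 13.5, 25.4, 11.4 and 5.64 CPM in zero cells (log2 1.83, SE 0.267, edgeR adjusted p = 0.00595). Dtx2, an E3 ubiquitin ligase of the Deltex family, Tmprss6, a membrane serine protease, Taf4b, a subunit of the general transcription factor TFIID, and Slfn4, of the Schlafen family, were higher in members of every rat with log2 differences of 1.27, 0.92, 0.91 and 0.85.

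Other genes were lower in members. Icos, a co-stimulatory receptor of T cells and innate lymphoid cells, was at 0, 22.6, 17.7, 32.6, 13.4 and 23.8 CPM in members and at 82.2, 37.0, 93.8, 58.4, 43.8 and 59.5 CPM in zero cells (log2 -1.50, SE 0.216, edgeR adjusted p = 0.0058). Ikzf2, which encodes the transcription factor Helios, was at 8.54, 18.1, 12.8, 20.3, 5.75 and 6.55 CPM in members and at 69.3, 33.0, 28.5, 42.5, 29.6 and 17.4 CPM in zero cells (log2 -1.34, SE 0.157, edgeR adjusted p = 0.00115). Rora, a nuclear receptor known for its part in innate lymphoid cells, was at 239, 232, 258, 503, 625 and 698 CPM in members and at 740.5, 363, 637, 549.8, 1181 and 1114 CPM in zero cells (log2 -0.87, SE 0.148, edgeR adjusted p = 0.014). These 3 genes were lower in the members of all 6 rats.

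Cxcr6, a chemokine receptor of tissue-resident lymphocytes, was at 0, 32.8, 0.982, 7.05, 1.92 and 2.25 CPM in members and at 18.9, 45.4, 10.9, 14.3, 10.8 and 6.16 CPM in zero cells (log2 -1.38, SE 0.295, edgeR adjusted p = 0.0444), and it was the only gene of 12 tested on a list of tissue residency to pass. Il23r, the interleukin-23 receptor, chosen after its values were seen, had no UMI in the members of 4 rats and was at 1.08 to 31.1 CPM in zero cells (log2 -2.77, SE 0.425, edgeR adjusted p = 0.00776). The summed level of 9 marker genes of innate lymphoid cells of type 2, which share genes with NK cells, was 364 to 810.0 CPM in members and 597 to 1345 CPM in zero cells, lower in the members of all 6 rats. Rora made up most of this sum, at 232 to 698 CPM in members and 363 to 1181 CPM in zero cells, and Icos is also on the list. Both were named above as lower in members, so the lower sum largely restates them and is no separate observation. Of the defining genes of type 2 cells, Il13 had 1 UMI in members and 1 in zero cells, Areg 8 and 40, Il17rb 8 and 47, and Il1rl1 191 and 646. These counts are pooled over 3535 members and 8244 zero cells and do not give the size of a difference. By rat Areg was at 0 to 0.261 CPM in members and 0 to 2.40 CPM in zero cells. Il17rb was at 0 to 25.6 and 0 to 4.01 CPM, and Il1rl1 at 1.92 to 51.2 and 4.65 to 39.5 CPM. Gata3 did not pass (log2 -0.15, SE 0.0769, edgeR adjusted p = 0.594). Without NK cells that had a UMI of Il1rl1, Il17rb, Il13, Il5 or Areg, an alternative added after seeing the data, 96 genes passed, 90 of them among the 109. 

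S100a4, a calcium-binding protein, was at 102, 196, 75.6, 480.4, 63.3 and 65.8 CPM in members and at 464, 478, 669.5, 700.4, 174 and 190.3 CPM in zero cells (log2 -1.65, SE 0.258, edgeR adjusted p = 0.00822). Anxa1, an annexin with anti-inflammatory action, was at 93.9, 22.6, 63.4, 100.5, 61.4 and 70.9 CPM in members and at 333, 46.0, 189, 247, 96.8 and 92.1 CPM in zero cells (log2 -1.07, SE 0.168, edgeR adjusted p = 0.00845). Ankrd6 was at 34.1, 35.1, 35.9, 41.4, 47.9 and 47.2 CPM in members and at 90.9, 69.4, 90.3, 59.2, 99.6 and 96.0 CPM in zero cells, a difference that passed under all 21 alternative settings (log2 -1.05, SE 0.112, edgeR adjusted p = 0.000617). Ankrd6 was thus the steadiest of the named genes, with no overlap between members and zero cells.

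Further genes lower in the members of all 6 rats were the metalloprotease gene Adam12 (log2 -1.97), the G protein gene Gna15 (-1.60), the matrix gene Mgp (-1.54), the glycan-branching enzyme Mgat4a (-1.46), the receptor subunit Ramp1 (-1.44), the calcium-binding Efhd1 (-1.27) and the collagen gene Col4a4 (-1.002). Mgp is typical of stromal cells, and the summed level of 5 fibroblast genes was 38.5 to 862 CPM in members and 149 to 1342 CPM in zero cells, lower in members of 5 of 6 rats. The part of fibroblast RNA in these differences was not tested.

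**Figure D4:**
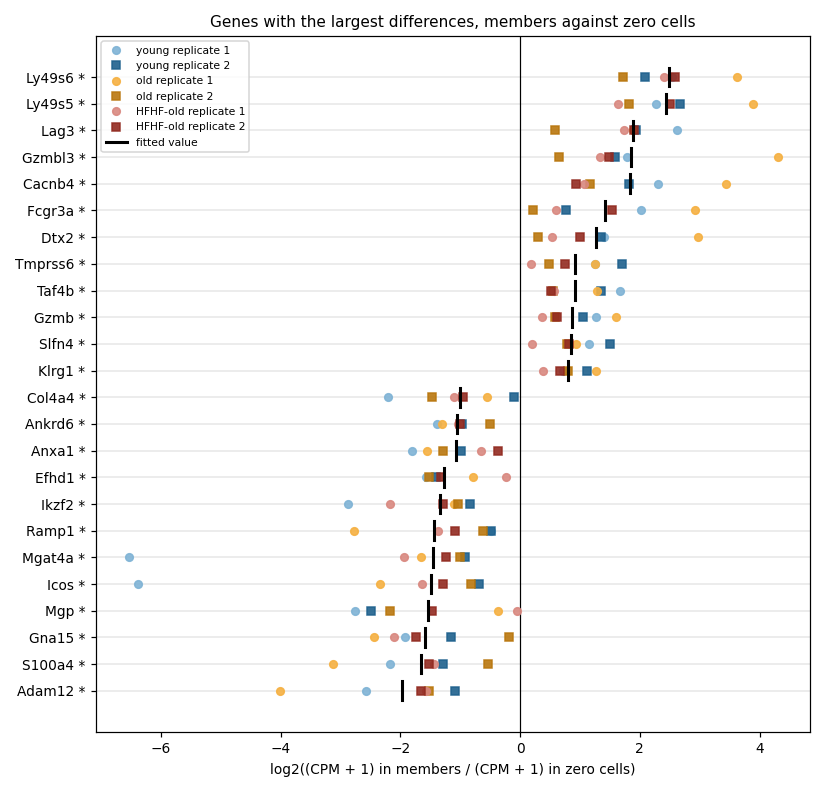
Log2 ratio of members to zero cells (horizontal axis, CPM + 1 in both) for the 12 genes each way with the largest differences among those that met the naming criteria (the same direction in every rat, a mean of at least 20 CPM and a call in cells matched on UMIs), with 1 point per rat and a black bar for the edgeR estimate. All points of a gene lie on 1 side of 0, and the estimates run from 2.49 for Ly49s6 to -1.97 for Adam12.

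Few genes of the other lists passed. None of the genes tested passed among cytokine receptors and their signalling (26 tested), effector cytokines and chemokines (8), genes of circulating or mature NK cells (10), copines (5), proliferation (13), interferon response (14) and oxidative stress (16), and the medians of these lists lay between -0.08 and 0.27 on the log2 scale. Among them 12 of 13 proliferation genes, 12 of 14 interferon response genes and 4 of 16 oxidative stress genes lay above 0, against 5171 of all 11393 genes. Of 13 immediate early genes, 1 was lower in members, and of 21 NK transcription factors Ikzf2 and Rora were lower and none higher. Zeb2, a transcription factor of NK cell maturation, was at 734, 351, 755, 192, 278 and 422 CPM in members and at 399, 136, 85.4, 141, 211 and 224 CPM in zero cells, and although higher in the members of every rat it did not pass (log2 1.14, SE 0.278, edgeR adjusted p = 0.0708). Tbx21, which encodes the NK cell regulator T-bet, did not pass either (log2 0.28, SE 0.0994, edgeR adjusted p = 0.282).

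RNA of other pancreatic cells was not equal in the 2 cell groups. The summed level of 8 islet genes was 9.94 to 20216 CPM in members and 17.5 to 56102 CPM in zero cells, lower in the members of all rats but young replicate 2. Acinar genes, 7 of 8 listed, summed to 323 to 12242 CPM in members and 540.4 to 18454 CPM in zero cells, lower in the members of all rats but old replicate 1. HFHF-old replicate 2 had the lowest sums of both lists. The 6 dendritic cell genes summed to 76.8 to 2086 CPM in members and 161 to 2329 CPM in zero cells, lower in the members of all 6 rats. Of 14 T cell genes the sum was 447 to 686 CPM in members and 423 to 577 CPM in zero cells, and of 6 B and plasma cell genes it was 0 to 8.84 CPM and 1.54 to 75.1 CPM. When NK cells with more than 1 UMI of 9 islet, acinar, plasma cell and red cell genes per 1000 UMIs were left out, an alternative added after seeing the data, only 2 rats could be fitted and 50 genes passed, 26 of them among the 109. Without HFHF-old replicate 2 the number of calls fell from 109 to 36, 33 of them among the 109, and without young replicate 1, the rat with 17 members, it fell to 52, 50 of them shared. Of the 24 named genes, Gzmbl3, Fcgr3a, Dtx2, Tmprss6, Gna15, Mgp, Ramp1 and Col4a4 lost their call without HFHF-old replicate 2, and the same genes except Gna15 lost it without young replicate 1. Without old replicate 1, 71 genes passed and Fcgr3a, Tmprss6 and Ramp1 did not. Without NK cells that had a UMI of C1q, Lyz2 or Cd79 genes, 32 genes passed, 29 of them shared, but young replicate 1 then had 6 members and could not be fitted, so that this count is to be read against the 52 without that rat. Where cells were matched on total UMIs within each rat, 106 genes passed, 78 of them shared, and without the barcodes found in several libraries 118 passed, all 109 among them.

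Among the members, cells with Klrh1 and cells with Klri2 were then compared within the 4 older rats, since the young rats had 2 and 0 Klrh1 members. Of 7841 genes tested 148 (1.89%) passed, with the rat as a block, 41 (0.523%) higher in Klrh1 members and 107 (1.36%) higher in Klri2 members. Values for this comparison follow the order old replicate 1, old replicate 2, HFHF-old replicate 1 and HFHF-old replicate 2, in which the numbers of Klrh1 members were 29, 13, 12 and 403 and those of Klri2 members 170, 213, 54 and 1974. The small numbers of Klrh1 members leave low genes at 0 in single rats.

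Of the lists tested, 2 of 7 genes of circulating or mature NK cells, 2 of 6 effector cytokines and chemokines, 2 of 19 NK transcription factors, 2 of 12 cytotoxic granule genes, 1 of 22 signalling adaptors and 1 of 23 cytokine receptor genes were lower in Klrh1 members, and no gene of these lists was higher. Zeb2, one of the transcription factors, was at 46.2, 0, 39.4 and 61.5 CPM in Klrh1 members, at 979, 223, 329 and 557 CPM in Klri2 members and at 85.4, 141, 211 and 224 CPM in zero cells, so that Klrh1 members lay below both others in each rat (log2 -3.58 against Klri2 members, SE 0.249, edgeR adjusted p = 5.74e-08). Gzmbl3 had no UMI in the Klrh1 members of any of these 4 rats and was at 341, 118, 42.6 and 44.6 CPM in Klri2 members. Taken over the 4 rats, it was at least 92.7-fold higher in Klri2 members, with 3 counts over the pooled Klrh1 members as the limit, and at least 33.5-fold without HFHF-old replicate 2, which holds most of the Klrh1 members (edgeR adjusted p = 5.74e-08 for Gzmbl3 in the 4 rats). Fcgr3a was at 0, 0, 0 and 1.59 CPM in Klrh1 members against 36.9, 18.4, 26.0 and 40.3 CPM in Klri2 members (edgeR adjusted p = 2.7e-05). In zero cells Gzmbl3 was at 10.97 CPM or more and Fcgr3a at 2.88 CPM or more in every rat, above the measured levels in Klrh1 members. The Klrh1 members of old replicate 1, old replicate 2 and HFHF-old replicate 1 summed to only 303023, 71395 and 76207 UMIs. By the limit of 3 counts, 0 UMIs in these rats do not place Fcgr3a below zero cells, nor Gzmbl3 in HFHF-old replicate 1. Gzma, a gene of the rule and not tested, was at 0 to 106 CPM in Klrh1 members. It was at 707.5 to 2815 CPM in Klri2 members and 105 to 1326 CPM in zero cells, over the rats that had such cells.

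Gzmb was at 261, 308, 118 and 147 CPM in Klrh1 members and at 618.1, 439, 201 and 307 CPM in Klri2 members (log2 -1.02, SE 0.167, edgeR adjusted p = 0.00111). In zero cells Gzmb was at 173, 272, 143 and 169 CPM, above the Klrh1 members in some rats and under them in others. S1pr5, a receptor that lets NK cells leave tissue, Ifng, which encodes interferon gamma, Tbx21 and Ccl5 were also lower in Klrh1 members, with log2 differences of -2.75, -2.18, -0.73 and -0.63. Of 12 cytotoxic granule genes 2 were lower in Klrh1 members, and the median of that list was -0.03 both with the fitted value of Gzmbl3 and with its limit.

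Cd8a, which rat NK cells carry as the CD8 alpha chain, was picked outside the naming criteria and the gene lists. It was at 106, 70.0, 78.7 and 67.3 CPM in Klrh1 members, at 563, 295, 225 and 294 CPM in Klri2 members and at 180.3, 229, 149 and 186 CPM in zero cells (log2 -2.16 between the 2 kinds of members, SE 0.19, edgeR adjusted p = 9.28e-07). Nrgn, which encodes the calmodulin-binding neurogranin, was at 0, 0, 0 and 3.97 CPM in Klrh1 members, at 156, 179, 59.2 and 83.6 CPM in Klri2 members and at 97.2, 185, 62.6 and 37.9 CPM in zero cells (edgeR adjusted p = 6.69e-08). Klrh1 members thus lay below zero cells as well for both genes. Il12rb2 was at 422, 336, 354 and 547 CPM in Klrh1 members and at 575, 477, 603 and 885 CPM in Klri2 members (log2 -0.63, SE 0.154, edgeR adjusted p = 0.0354). Cd8a, Nrgn and Il12rb2 were lower in the Klrh1 members of all 4 rats.

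With single UMIs in Klrh1 members, AABR07003304.2 had 1 UMI there and 535 in Klri2 members, a ratio of pooled CPM of 92.0 with an exact 95% counting interval of 16.4 to 3641. By rat it was at 0 to 13.1 CPM in Klrh1 members and 8.19 to 161 CPM in Klri2 members, over the rats that had such cells. This ratio and the next pool UMIs over 4 rats, with most of the summed UMIs from HFHF-old replicate 2. Their intervals cover counting error only and not the spread between rats. Piezo2, a mechanosensitive channel gene, had 1 and 157 UMIs, a ratio of 27.0 (4.78 to 1073), with 220.1 CPM in the Klri2 members of HFHF-old replicate 1 and 1.48 to 15.1 CPM in the other 3 rats. Its call was lost without HFHF-old replicate 1 (edgeR adjusted p = 0.006 with all 4 rats). Of 18 killer lectin genes tested, Ly49s7, Klra5 and Klra1 were lower in Klrh1 members and 2 were higher. The higher ones were Ly49si1, at 578, 924, 839.8 and 916 CPM in Klrh1 members against 415, 406, 566 and 353 CPM in Klri2 members (log2 0.88, SE 0.165, edgeR adjusted p = 0.00397), and Klrc1, at 172, 98.05, 131 and 80.8 CPM against 34.9, 62.5, 37.9 and 60.8 CPM (log2 1.09, SE 0.28, edgeR adjusted p = 0.0492). For Klrc1, Klri2 members lay below zero cells in all 4 rats. Klrh1 members lay above zero cells in old replicate 1 and HFHF-old replicate 1 and below them in the other rats.

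A smaller number of genes was higher in Klrh1 members. LOC690020 was at 125, 98.05, 78.7 and 178 CPM in Klrh1 members, at 5.92, 13.3, 16.6 and 37.9 CPM in Klri2 members and at 6.04, 4.87, 3.99 and 26.2 CPM in zero cells (log2 2.68, SE 0.288, edgeR adjusted p = 1.31e-05). AABR07062183.1, a gene known only by its clone name, was at 178, 84.0, 131 and 138 CPM in Klrh1 members, 58.6, 45.1, 63.9 and 35.1 CPM in Klri2 members and 10.1, 13.5, 10.2 and 20.0 CPM in zero cells (log2 1.62 between the 2 kinds of members, SE 0.214, edgeR adjusted p = 0.000127). Both were highest in Klrh1 members of every rat. Zbtb32, a zinc finger transcription factor of lymphocytes, was at 66.0, 42.0, 65.6 and 29.7 CPM in Klrh1 members and at 21.1, 11.3, 9.46 and 11.5 CPM in Klri2 members (log2 1.64, SE 0.346, edgeR adjusted p = 0.0123). Car2, which encodes carbonic anhydrase 2, Myh4, a myosin heavy chain gene, and Hecw2, a ubiquitin ligase gene, were higher by 1.46, 1.44 and 1.37 on the log2 scale. Without HFHF-old replicate 2, 93 genes passed, and of the 12 genes named for this comparison only 8 could be fitted, of which Zbtb32, Car2, Myh4 and Hecw2 did not pass. Without old replicate 1, 83 genes passed, 10 of the 12 could be fitted and Zbtb32 did not pass.

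**Figure D5:**
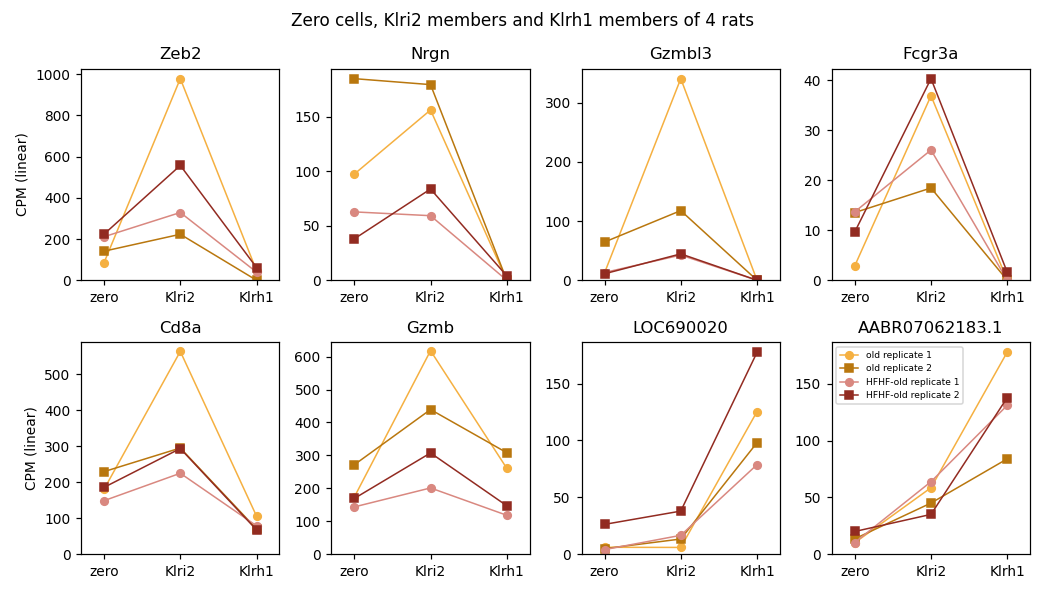
CPM (vertical axis, linear, from 0) of 8 genes in zero cells, Klri2 members and Klrh1 members, with 1 line per rat for the 4 older rats. Zeb2, Gzmbl3, Fcgr3a, Cd8a and Nrgn fall from Klri2 members to Klrh1 members in each rat, and LOC690020 and AABR07062183.1 rise.

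Diet and age were compared within the members in 1 fit of the 6 rats. The fit asks whether the summed levels of these cells differed between rats of different age and diet. Klrh1 members numbered 2, 0, 29, 13, 12 and 403 in the 6 rats. A change within the cells and a change in the mix of Klrh1 and Klri2 members cannot be told apart in these sums. Between HFHF-old and old rats 1 of 8619 genes (0.0116%) passed with edgeR, 680 had an unadjusted p under 0.05, and DESeq2 called 15. The gene was RT1-Bb, a chain of an MHC class II molecule, at 0, 5.66, 220.1, 225, 1.92 and 1.89 CPM in members, high in both old rats and near 0 in the others (log2 -6.97, SE 0.406, edgeR adjusted p = 0.00155). Its level in zero cells was 9.51, 10.5, 479, 262, 13.1 and 3.07 CPM, so it was highest in the old rats there too. Without HFHF-old replicate 2 its call was lost (log2 -6.93, edgeR adjusted p = 0.0587). The summed level of 6 dendritic cell genes, which include the MHC class II genes RT1-Ba and RT1-Da, was 76.8, 483, 1108, 2086, 151 and 109.7 CPM in members, also highest in both old rats. The summed level of 11 macrophage and monocyte genes was 6.22 to 321 CPM in members and 11.8 to 352 CPM in zero cells, and without NK cells that had a UMI of C1q, Lyz2 or Cd79 genes RT1-Bb was not called in the 5 rats left, young replicate 1 having too few members (log2 -4.46, edgeR adjusted p = 0.381).

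Between old and young rats 2 genes (0.0232%) passed, RT1-Bb (log2 5.54, SE 0.462, edgeR adjusted p = 0.0232) and AABR07062183.1 (log2 6.15, SE 0.619, edgeR adjusted p = 0.0465), with 435 genes at an unadjusted p under 0.05 and 24 called by DESeq2. AABR07062183.1 was at 0, 1.13, 86.9, 55.5, 82.4 and 69.2 CPM in members and at 8.78, 3.09, 10.1, 13.5, 10.2 and 20.0 CPM in zero cells. Members of the young rats had 0 and 1 UMI of AABR07062183.1, and the 4 older rats did not overlap with them. As the young members summed to only 117139 and 883883 UMIs, the log2 value of 6.15 rests on 1 UMI and its size is uncertain. AABR07062183.1 was also higher in Klrh1 members than in Klri2 members, as given above. No gene of the 13 lists passed in either contrast of members. The call of AABR07062183.1 was lost when any 1 of the 6 rats was left out, and that of RT1-Bb without young replicate 2, old replicate 1, old replicate 2 or HFHF-old replicate 2.

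In all NK cells 0 of 12117 genes (0%) passed between HFHF-old and old rats with edgeR, although 1737 had an unadjusted p under 0.05 and DESeq2 called 182, and 2 (0.0165%) passed between old and young rats. These were AC127784.2, which had no UMI in either young rat and was at 35.6, 22.2, 18.8 and 23.4 CPM in the older rats, at least 137-fold higher in old than in young NK cells with 3 counts as the limit and at least 41.6-fold without young replicate 1 (edgeR adjusted p = 0.0493), and Nr3c2, the mineralocorticoid receptor gene, at 22.0, 20.1, 128, 94.9, 212 and 230.4 CPM (log2 2.50, SE 0.204, edgeR adjusted p = 0.0493). Both calls were lost when any 1 of the 6 rats was left out. In members Nr3c2 was not called (log2 2.70, SE 0.394, edgeR adjusted p = 0.367). Whether the difference between members and zero cells itself differed between HFHF-old and old rats was tested as an interaction, and 2 of 11393 genes (0.0176%) passed, both of them insulin genes.

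Over 18 sums, that is 6 rats by cells with 0, 1 and 2 or more UMIs, the genes whose level followed the summed Klrh1 and Klri2 most closely among 9051 genes were Ly49s5 (Pearson r = 0.791), Hdac1 (0.734), Ly49s6 (0.715), Ly49si1 (0.607) and Siae (0.571). The sums are the cell groups that the rule made from the same pair of genes and share rats and depth, so these values in the main restate the comparison of members with zero cells and are a description.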

How the data were processed

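Single-cell RNA was measured in 6 rat pancreatic islet preparations. The deposited counts are UMI counts per gene and barcode, which the authors made with Cell Ranger (5.0.0 per the file headers), with Rnor_6.0 named in the submitters' processing notes, and they hold no normalization. Barcodes with under 200 genes (848) or over 25% mitochondrial UMIs (1578) were dropped. No doublet caller was run. UMIs were summed per rat and cell group, with at least 10 cells per sum, and tested with edgeR 4.0.16 in R 4.3.3 (TMM scaling, filterByExpr, quasi-likelihood test, Benjamini-Hochberg adjustment). A gene was called at an adjusted p under 0.05 and a fold over 1.5. Standard errors were taken as the size of the log2 difference over the root of its F statistic. CPM is per 1000000 UMIs of a sum, without TMM. The rat was a block between cell groups, whereas diet and age were fitted without a block over all 6 rats.

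Named genes were the 12 with the largest change each way (6 for Klrh1 against Klri2 members) among called genes of one direction in every rat, a mean of at least 20 CPM in the higher group and, for members against zero cells, a call with cells matched on total UMIs as well. Genes of 13 lists were also named: killer lectins, signalling adaptors, cytotoxic granule, cytokine receptors, effector cytokines, transcription factors, mature NK, tissue residency, copines, proliferation, immediate early, interferon response and oxidative stress. Members and lists were chosen with earlier results of these data known. Shares were compared with exact permutation tests (scipy 1.17.1). Alternatives changed the scaling, the low-count filter, the tool (DESeq2 1.42.0), the block, the limits on cells, the depth, or left out 1 rat. Scripts were tested on simulated data. Labels call the 2 rats of a group replicates and each library is 1 animal. Intervals are exact binomial at 95% and limits from 0 use 3 counts. Promoters are RefSeq's (GRCr8). Python 3.11.15, numpy 2.4.6, pandas 2.3.3 and matplotlib 3.10.9 were used.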

Additional observations from a re-analysis of the deposited data

Results flagged for a closer look

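The insulin genes Ins2 and Ins1, products of beta cells and near-identical copies, differed between members and zero cells by another amount in HFHF-old than in old rats, by a test of the difference itself. That difference was 3.35 on the log2 scale for Ins2 and 3.21 for Ins1. Ins1 was at 1302 and 2002 CPM in the members of the old rats against 22056 and 20112 CPM in their zero cells, while in the HFHF-old rats it was at 1264 and 2.15 CPM in members and 1450 and 4.24 CPM in zero cells. Ins2 was at 778 and 2306 CPM in old members against 15606 and 26122 CPM in old zero cells. A UMI of Ins1 was found in 99.1% and 95.1% of the members of the old rats and in 98.4% and 95.4% of their zero cells. Neither the part of free beta cell RNA nor another cause of this difference was tested.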

How the results depend on the processing

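For members against zero cells 109 genes passed. The count was 450 without the filter on low counts, and 1 without the rat as a block, which ignores that both cell groups come from the same rat. It was 45 with members at 3 UMIs or more, 32 without cells holding C1q, Lyz2 or Cd79 UMIs, 167 with cells thinned to 2000 UMIs, 50 for cells with few islet, acinar, plasma cell and red cell UMIs (added after seeing the data, with 2 rats left), and 36 to 145 leaving out 1 rat. At 3 UMIs, without C1q, Lyz2 or Cd79 cells and after thinning, young replicate 1 had 9, 6 and 7 members, under the 10 needed, so these counts also lack that rat (52 without it alone). For Klrh1 against Klri2 members 148 passed, 235 without the filter, 83 with DESeq2, 8 without the rat as a block, and 83 to 148 leaving out 1 rat. For members of HFHF-old against old rats 1 passed, 208 without the filter, 15 with DESeq2, 24 without C1q, Lyz2 or Cd79 cells (5 rats), and 1 without either young rat. The 1 call was lower in HFHF-old rats, while with DESeq2 3 were higher and 12 lower. Leaving out an old or HFHF-old rat left 1 rat in that group, and without HFHF-old replicate 2 the calls were higher in HFHF-old. For members of old against young rats 2 passed, 158 without the filter, 24 with DESeq2, 48 without C1q, Lyz2 or Cd79 cells (1 young rat left, assumed to vary like the other groups), 1 by library size alone, 1 with the replicate block, 1 without the top 1% of gene number, 0 with members at 1 UMI or more, and 0 to 4 leaving out 1 rat. Both of the 2 calls were higher in old rats, but the calls under other settings, not always of these genes, were often lower: at 3 UMIs or more 0 were higher and 2 lower, without young replicate 1 it was 1 and 3, without young replicate 2 it was 0 and 1, and without C1q, Lyz2 or Cd79 cells 17 and 31. For all NK cells, HFHF-old against old gave 0, 788 without the filter, 182 with DESeq2 and 0 to 14 leaving out 1 rat, and old against young gave 2, 290 without the filter, 63 with DESeq2, 0 by library size alone, 0 with the replicate block and 0 to 1 leaving out 1 rat. The difference of differences gave 2, and 3 to 142 leaving out 1 rat, an alternative added after seeing the data. The share of members, HFHF-old minus old, turned from -2.18 to 0.689 points without thinning and ran from -6.498 to 2.13 leaving out 1 rat, with 1.24 without old replicate 1, while the 6 other alternatives, all on thinned cells, kept it negative. The cause of these changes was not tested.

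Over the named genes, 534 pairs of gene and setting kept direction and call, 139 kept direction and lost the call, and 0 changed direction. Named genes were chosen for 1 direction in every rat or for groups without overlap. A change of direction was thus unlikely in advance, and its absence is no separate support. Replicate numbers were not shown to pair rats: deviations of same-numbered rats correlated in members at 0.171 (young and old), -0.0658 (young and HFHF-old) and 0.147 (old and HFHF-old). Group contrasts rest on 2 rats a group, and young replicate 1 has 17 members, so that low genes have few or no UMIs there.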
